A study of Mus musculus with 2 samples.

Results

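Smooth muscle and fibrillar collagen transcripts were examined in 2 libraries of RNA recovered by immunoprecipitation from nuclear extracts of RAW 264.7 cells, a mouse macrophage line. The 10 genes are Tagln, Myl9, Acta2, Actg2, Myh11, Des, Cnn1, Tpm2, Col1a1 and Col3a1, out of 23924 gene symbols in the deposited table. They were chosen because they had been seen in the IgG control, so the nucleolin against IgG contrast chose them, and their values in it are given as a description with no test. Transcript rows were summed per symbol. Each library was the only one of its group, so no value has a replicate error, and no difference can be set against a spread between replicates.

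Both libraries came from macrophages depleted of mRrp6, an RNA-degrading subunit of the nuclear exosome, that had received LPS at 80 ng/ml for 12 h, and cytosolic fractions were left out. The control arm, called the IgG control, used anti-rabbit IgG. The other arm used an antibody against nucleolin, an RNA-binding protein of the nucleolus, and is called the nucleolin pulldown. It is the library titled nucleoplasmic RNA, matched to its column through the nucleolin symbol NCL and the design text. The sources used here do not say how mRrp6 was depleted, or whether the cells were a clone or a pool. The study asked which transcripts nucleolin targets. Values are FPKM, fragments scaled by transcript length and library size. At few reads such a value depends mostly on transcript length. Lengths and read numbers are unknown here, so ranks and ratios between genes are a description only. A value of 0.1 FPKM or more is called listed.

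Smooth muscle cells line hollow organs and vessels and contract when myosin filaments slide along actin, a step switched on by phosphorylation of the myosin regulatory light chain. Their contractile genes are driven by serum response factor, which binds a sequence called the CArG box, together with its partner myocardin. Fibrillar collagens are triple-helical proteins that fibroblasts, and to a lesser degree smooth muscle cells, secrete into the surrounding matrix. RAW 264.7 macrophages are not known for either programme.

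Promoter sequence was available for 6 of the 10 genes (Myl9, Acta2, Des, Cnn1, Tpm2 and Col3a1) and is shown as background on the CArG box. The source is RefSeq on build GRCm38.p6, which is mm10. Windows ran from 250 bases before to 50 bases after the annotated start. The CArG box was searched as CC, 6 bases that are A or T, and GG, which reads the same on both strands. Of 32851 windows of this length, 1.63% held it, and of the 6 member windows only that of Myl9 did. A looser form, in which at least 5 of the 6 inner bases are A or T, contains the strict one and was found in 9.98% of all windows and in those of Myl9 and Acta2, with 2 matches in each. The Myl9 stretch before the gene's outermost annotated start lies at chr2:156775214-156775407 on the plus strand. The Acta2 stretches surround the 2 looser matches, at chr19:34255438-34255467 and chr19:34255388-34255417, read on the minus strand. Both lie before the annotated start used for the window but inside the gene's annotated span, past its outermost start. Capitals mark the matches, and the first Myl9 match is the strict one.
Myl9 upstream: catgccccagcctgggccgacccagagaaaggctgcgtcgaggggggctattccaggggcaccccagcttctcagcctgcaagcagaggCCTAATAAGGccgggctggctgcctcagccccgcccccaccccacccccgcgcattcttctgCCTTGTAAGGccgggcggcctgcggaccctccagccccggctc
Acta2 distal site: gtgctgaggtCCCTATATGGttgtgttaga
Acta2 proximal site: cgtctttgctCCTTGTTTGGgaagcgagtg
The MCAT motif CATTCC, searched on both strands and overlapping none of these matches, was in 14.7% of all windows and in those of Acta2 and Col3a1. These matches describe letters in the windows and were not tied to any measured value.

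All 10 genes were listed in the IgG control, from 15.8 FPKM for Col3a1 to 214 FPKM for Tagln, a 13.6-fold range with a median of 36.8 FPKM. In the nucleolin pulldown 9 were listed at 0 and Tpm2 was at 8.76 FPKM. The lowest of the 10 IgG values (Col3a1) lay above the highest nucleolin value (Tpm2), in genes chosen for being in IgG. All 10 were at least 2-fold lower in the nucleolin pulldown on the log2(FPKM + 1) scale, as were 56.7% of the 3194 genes that reached 1 FPKM in at least 1 library. Being at 1 FPKM or more in IgG and below 0.1 FPKM in nucleolin held for 9 of the 10 genes and for 46.0% of genes compared. No member was at least 2-fold higher in the pulldown, where 37.8% of genes compared were, and none was at 1 FPKM or more there and below 0.1 FPKM in IgG, as 37.1% were. The members were chosen on this contrast, so nothing is read from these counts. Summed over the 10 genes, the level was 566 FPKM in the IgG control and 8.76 FPKM in the nucleolin pulldown.

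**Figure D1:**
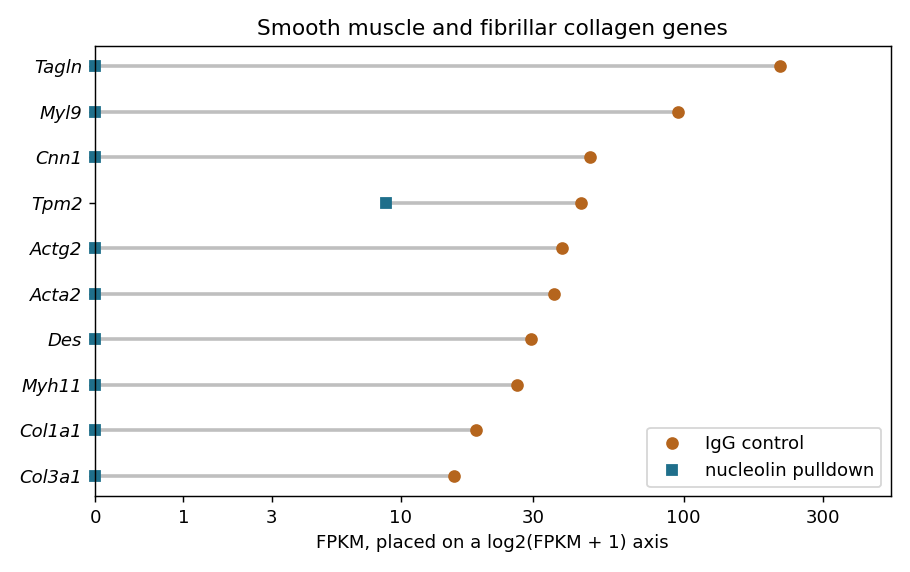
FPKM of each of the 10 genes in the IgG control (circles) and the nucleolin pulldown (squares), 1 library each, on a log2(FPKM + 1) axis with tick labels in FPKM. The circles run from 15.8 FPKM (Col3a1) to 214 FPKM (Tagln), and only Tpm2 has a square away from 0, at 8.76 FPKM.

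The actin-binding proteins held the highest value. Tagln, which encodes transgelin (SM22), a calponin-related protein that cross-links actin, was at 214 FPKM in the IgG control and 0 in the nucleolin pulldown. It ranked 59th from the top of 2008 compared genes listed in the IgG control and took 37.8% of the summed IgG level of the 10 genes. Cnn1, which encodes calponin 1, an inhibitor of the myosin ATPase, was at 47.4 FPKM in the IgG control and 0 in the nucleolin pulldown. Tagln lies on chromosome 9 from 45929628 to 45936058, and Cnn1 on the same chromosome from 22099221 to 22109221. The span of Tagln overlaps that of Pcsk7, which was at 0 FPKM in both libraries.

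Tpm2, which encodes beta-tropomyosin, a coiled-coil protein lying along the actin filament, was the exception among the 10. It was at 44.3 FPKM in the IgG control and 8.76 FPKM in the nucleolin pulldown, 5.06 times higher in the former. Of its 3 transcript rows, NM_001277875 carried nearly all of the value in both libraries, with 44.3 and 8.76 FPKM. The ratio of 0.198 lies within 0.05 log2 units of 0.197. That is what 2 IgG reads to 1 nucleolin read would give under the equal-read ratio assumed below. With those reads the exact (Clopper-Pearson) 95% interval of the nucleolin-to-IgG ratio runs from 0.00333 to 3.78. That interval covers counting error only, is the widest possible because the true reads may be a multiple of this pair, and includes equal levels. If the reads were 2 and 1, a difference in Tpm2 was not detectable at this depth, and the true read numbers are unknown. Its log2 ratio of -2.22 came within 2-fold, at -0.95, when centred on the median of all compared genes. Tpm2 lies on chromosome 4 from 43513726 to 43523583. Its end overlaps that of Car9, a carbonic anhydrase gene at 24.1 FPKM in the IgG control and 0 in the nucleolin pulldown.

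The smooth muscle actins were listed at similar levels in the IgG control. Actg2, the gamma-actin of visceral smooth muscle, was at 38.0 FPKM in IgG and 0 in nucleolin. Acta2, the alpha-actin of vascular smooth muscle and of activated fibroblasts, was at 35.7 FPKM in IgG and 0 in nucleolin. With no replicates, the ratio of 1.06 between them cannot be set against any spread. Actin genes have near-identical coding sequences and the assignment of shared reads is not given in the sources used here, so the values of single actin genes are uncertain. Acta2 lies on chromosome 19 from 34240336 to 34255585 and Actg2 on chromosome 6 from 83512909 to 83536251.

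The smooth muscle myosin genes among the 10 members were on the same side. Myl9, which encodes a regulatory light chain of smooth muscle myosin, was at 96.0 FPKM in the IgG control and 0 in the nucleolin pulldown, rank 173 of 2008. Myh11, the smooth muscle myosin heavy chain and the most restricted marker of the lineage among the 10, was at 26.4 FPKM in IgG and 0 in nucleolin. Its 2 transcript rows were both listed in IgG, NM_001161775 at 24.5 FPKM and NM_013607 at 1.90 FPKM. Myl9 lies on chromosome 2 from 156775408 to 156781657 and Myh11 on chromosome 16 from 14194527 to 14292188. Des, which encodes desmin, the muscle intermediate filament protein found in smooth and striated muscle, was at 29.5 FPKM in IgG and 0 in nucleolin, and lies on chromosome 1 from 75360292 to 75368579. The long non-coding RNA gene that overlaps Des, Gm15179, was at 0 in both libraries.

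The collagens were the lowest of the 10. Col1a1, the alpha-1 chain of type I collagen, was at 18.8 FPKM in the IgG control and 0 in the nucleolin pulldown. Col3a1, the chain of type III collagen, was at 15.8 FPKM in IgG and 0 in nucleolin. They stood on both sides of the median IgG level of 18.4 FPKM of genes listed there, while the other 8 genes stood above it, and the order of neighbouring genes has no replicate check. Together the collagens made up 34.6 FPKM of the 566 FPKM. Col1a2, which encodes the other chain of type I collagen, was below 0.1 FPKM in both libraries. Col1a1 lies on chromosome 11 from 94936224 to 94953042 and Col3a1 on chromosome 1 from 45311538 to 45349706.

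Depth limits what a 0 in the nucleolin pulldown shows. The most frequent nucleolin-to-IgG ratio among 246 low genes that had a single transcript row and were listed in both libraries was 0.393. It was shared by 157 (63.8%) of them within 0.05 log2 units. It is taken as the ratio that equal read numbers give, an assumption because read numbers are unknown. Every read ratio named here rests on it. On this assumption a nucleolin read was worth less FPKM than an IgG read of the same transcript. If a member rested on at least 1 IgG read, 1 nucleolin read of it would have been worth at most 84.1 FPKM for Tagln, 37.8 FPKM for Myl9 and 6.20 FPKM for Col3a1. A count of 0 allows up to 3 reads, which at 1 IgG read would be 1.18 times the IgG value. A member with a single IgG read therefore could not be told from one at an equal level in both libraries, and the number of IgG reads behind each member is unknown because the table holds no transcript lengths. The low genes at the ratio of equal reads had IgG values from 2.70 to 56.6 FPKM, where only genes below 60 FPKM were examined, and 8 of the 10 members lay within that range. Tagln and Myl9 lay above it. At few reads the order of genes within a library could also follow transcript length, which was not tested.

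Non-muscle relatives of the members differed from them in where they were listed. Of 15 such genes, 8 reached 1 FPKM, 6 of them in both libraries and 2 in the IgG control only, against 1 and 9 for the members. Over all 3194 genes compared, 538 were listed in both libraries and 1470 in the IgG control only. On the 2-fold measure the relatives did not stand apart as clearly. Of the 8 relatives, 6 were also lower in the pulldown, against 56.7% of all genes compared, and 0 were higher, against 37.8%. The 6 became 3 after centring on the median of all compared genes. Because the members were chosen for their place in the IgG control, the difference between relatives and members was not tested. Actb and Actg1, the cytoplasmic actins of all cells, were at 451 and 300 FPKM in the IgG control, above Acta2 and Actg2, and at 308 and 59.4 FPKM in the nucleolin pulldown. Tagln2, the transgelin of leukocytes, was at 35.8 FPKM in IgG and 14.3 FPKM in nucleolin, the ratio of equal reads. In the IgG control Tagln stood 5.97 times above it.

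Among the myosins, Myh9, the non-muscle myosin heavy chain of macrophages, was at 11.7 FPKM in IgG and 6.84 FPKM in nucleolin, and in IgG Myh11 was 2.26 times higher. Myl12a, a non-muscle regulatory light chain, was at 26.8 and 10.6 FPKM, again as for equal reads, and Myl9 was 3.58 times higher in IgG. Tpm3 was at 62.4 FPKM in IgG and 24.6 FPKM in nucleolin, again at equal reads and above Tpm2 in both libraries. Tpm4 (22.5 FPKM) and Cnn3 (23.5 FPKM) were listed in IgG and at 0 in nucleolin, as most members were. Cnn2 and Vim, the calponin and the intermediate filament gene of leukocytes, were at 0 in both libraries. Reads shared between close paralogs could affect each of these values.

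**Figure D2:**
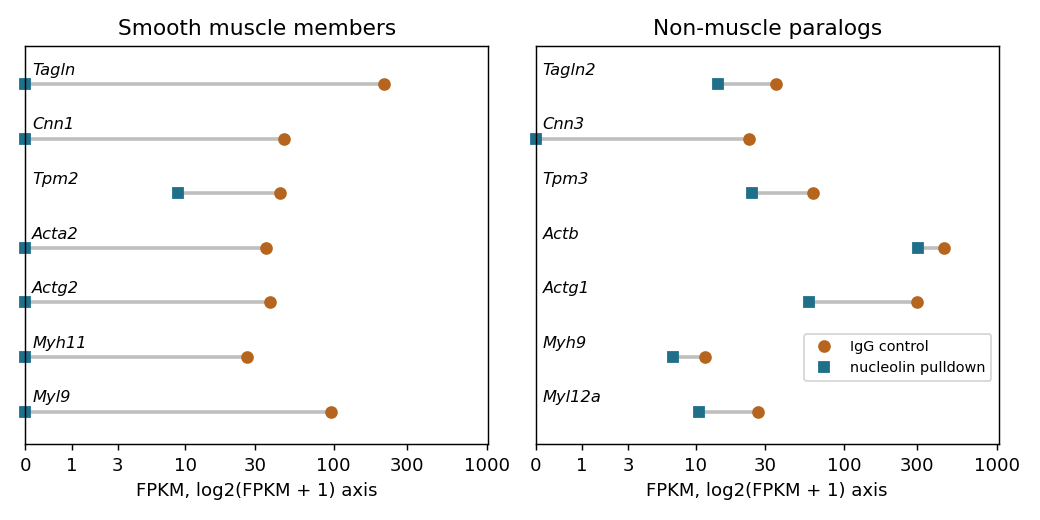
FPKM of 7 smooth muscle members (left) and a non-muscle relative of each (right) in the IgG control (circles) and the nucleolin pulldown (squares), 1 library each, on log2(FPKM + 1) axes with tick labels in FPKM. On the left only Tpm2 has a nucleolin value above 0, while on the right Cnn3 is at 0 there. The relatives shown were picked among those listed in at least 1 library; Tpm4 (IgG only) and the 7 of 15 relatives listed in neither library are not drawn.

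Other smooth muscle genes were listed in part. Of 32 genes for further contractile, adhesion and regulatory proteins of smooth muscle, 10 reached 1 FPKM. At least 2-fold lower in the nucleolin pulldown were 8 of these, against 56.7% of all genes compared. None was at least 2-fold higher, against 37.8%, and the 8 became 6 after centring on the median of all compared genes. All 10 were listed in IgG, 31.3% of the list, against 8.40% of all symbols in the table and 53.3% of the 15 non-muscle relatives. The shares are a description, since being listed there was not particular to this list and its genes were chosen with earlier results known. The median log2 ratio of the 10 listed genes was -3.43, against -1.27 over all genes compared and -5.06 over the members. These medians depend on the pseudocount because many nucleolin values are 0. They also depend on the filter: at a minimum of 10 FPKM the list stood at -3.62 and all compared genes at -3.70. Hspb1, a small heat shock protein (121 FPKM), and Csrp1, a LIM-domain protein of the actin cytoskeleton (53.9 FPKM), were listed in IgG and at 0 in nucleolin. So were Lmod1, which nucleates actin filaments in smooth muscle (11.3 FPKM), and Tgfb1i1, a focal adhesion adaptor (11.9 FPKM), both named here after their values were seen.

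The other 4 were in both libraries. Tpm1 was at 41.9 FPKM in IgG and 17.3 FPKM in nucleolin, Ckb, the brain-type creatine kinase, at 33.1 and 13.2 FPKM, as for equal reads, and Fhl1, a LIM-domain protein, at 20.4 and 16.1 FPKM, the ratio of 1 IgG to 2 nucleolin reads. Flna, the actin cross-linker filamin A, which is also named after its values were seen, was at 15.5 and 10.1 FPKM. The remaining 22 genes were below 0.1 FPKM in both libraries. They include Mylk, the kinase that phosphorylates the regulatory light chain, Smtn, Cald1 and Synm, and the transcriptional regulators Srf and Myocd.

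Of 32 further collagen and matrix genes, 24 were below 0.1 FPKM in both libraries. The other 8 were listed in IgG and at 0 in nucleolin, as 46.0% of all compared genes were, with IgG values from 6.59 to 35.9 FPKM. Col6a2, a chain of the microfibrillar type VI collagen, was highest at 35.9 FPKM, followed by Postn (periostin, 28.9 FPKM) and Bgn (the proteoglycan biglycan, 19.3 FPKM). Counted over all 44 collagen chain genes in the table, a family taken by symbol after the values were seen, 5 were listed in IgG (Col1a1, Col3a1, Col5a2, Col6a2 and Col4a5) and none in nucleolin. These 5 are 11.4% of the family, near the 8.40% of all symbols listed in IgG.

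Genes for collagen folding and processing went both ways, as all genes compared did. Of 16 such genes, 5 reached 1 FPKM. At 2-fold or more, 2 were higher in the nucleolin pulldown, against 37.8% of all genes compared, and 2 lower, against 56.7%. Serpinh1, the collagen-specific chaperone HSP47, was at 41.7 FPKM, and Pcolce, an enhancer of procollagen cleavage, at 31.6 FPKM, both in IgG with 0 in nucleolin. P4hb, a disulfide isomerase that is also a subunit of prolyl 4-hydroxylase and serves the endoplasmic reticulum of all cells, was at 18.1 FPKM in IgG and 99.8 FPKM in nucleolin. P4ha1, the catalytic subunit, was at 4.31 FPKM in nucleolin and 0 in IgG, and Ppib, a prolyl isomerase of the endoplasmic reticulum, was at 55.8 and 45.2 FPKM.

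Markers of other cell types of organ walls were listed unevenly. Of 12 fibroblast markers 7 reached 1 FPKM, 5 of them in IgG only, where 46.0% of all compared genes were, and their summed level was 375 FPKM in IgG and 15.7 FPKM in nucleolin. Clec3b (tetranectin, 107 FPKM) and Igfbp7 (a secreted growth factor-binding protein, 46.0 FPKM) were at 0 in nucleolin. Gsn, the actin-severing protein gelsolin, was at 144 FPKM in IgG and 7.07 FPKM in nucleolin, and Lpl, a lipase that macrophages also make, at 11.0 and 8.61 FPKM. The defining receptors Pdgfra and Pdgfrb were below 0.1 FPKM in both libraries. Of 30 striated muscle genes, Acta1 (33.0 FPKM) and Eno3 (33.0 FPKM) were listed in IgG only, 6.67% of the list and near the 8.40% of all symbols, and Tnni2 (37.9 FPKM) in nucleolin only. All 11 endothelial, 12 enteric neuron and glia, 3 interstitial cell of Cajal and 5 mesothelial markers were below 0.1 FPKM in both libraries. In RNA pooled from many cells, the number of cells behind a transcript and its RNA per cell cannot be told apart.

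Epithelial transcripts were in the IgG control beside the members, at higher levels. Of 24 gastric and pancreatic genes 17 reached 1 FPKM, and they summed to 21587 FPKM in IgG. All 17 were listed in IgG with 0 in nucleolin, against 46.0% of all genes compared. They were 70.8% of the list, against 8.40% of all symbols listed in IgG, a description of genes chosen with earlier results known. Pgc, which encodes a pepsinogen, was 23.8 times above Tagln, and the next were Clps (colipase, 4349 FPKM) and Pla2g1b (a secreted phospholipase, 3265 FPKM). Of 12 keratinocyte genes 8 were listed (66.7%), likewise in IgG only and chosen in the same way, with a sum of 1042 FPKM. Krt10 was highest at 201 FPKM, followed by Lor (loricrin, 188 FPKM) and Krt1 (169 FPKM). The part of these transcripts' source in the members' values was not tested.

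Of 16 macrophage markers, the defining genes of the labelled cell type, 14 reached 1 FPKM and 2 were listed in neither library. Listed in both libraries were 10 of the 14, against 538 of all 3194 genes compared. Another 4 were listed in nucleolin only (Lyz2, Csf1r, Itgam and Coro1a), against 37.1% of genes compared, and Lyz2 was at 199.6 FPKM there. None was listed in IgG only, against 46.0% of genes compared. The macrophage markers summed to 847 FPKM in IgG and 779 FPKM in nucleolin, against 566 and 8.76 FPKM for the 10 members. Their median log2 ratio of -0.68 turned to 0.59 after centring on all compared genes, so no direction is read for them. Cd14, the LPS co-receptor, was highest in both, at 319 FPKM in IgG and 207 FPKM in nucleolin. Cd68, a lysosomal glycoprotein, was at 138 FPKM in IgG and 16.2 FPKM in nucleolin. The signalling adaptors Tyrobp and Fcer1g were at 116 and 92.8 FPKM in IgG and at 49.4 and 116 FPKM in nucleolin.

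**Figure D3:**
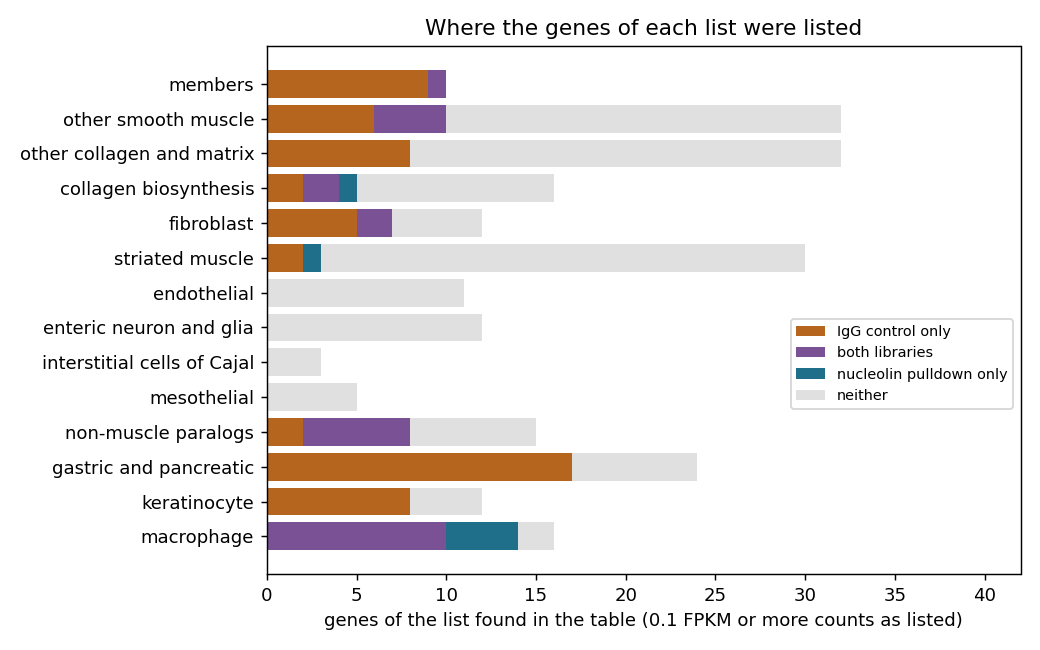
Number of genes of each list found in the table that were listed at 0.1 FPKM or more in the IgG control only, in both libraries, in the nucleolin pulldown only or in neither. The members' bar holds 9 genes in IgG only and 1 in both, the macrophage bar holds 10 in both and 4 in nucleolin only, and the endothelial, enteric, Cajal and mesothelial bars hold none in either library.

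The level of the members was shared by genes of other functions. The 5 genes at 0 in the nucleolin pulldown whose IgG level was nearest the members' median of 36.8 FPKM were Uba3, Rbm3, Phb2, Brms1 and Tsen34, from 36.3 to 37.2 FPKM. With 2 libraries no likeness of pattern beyond this level could be measured. Without the 4 highest RNA genes Rn45s, Lars2, Mir6236 and Mir142b, the 10 members made up 0.579% of the summed FPKM of the IgG control and 0.0244% of that of the nucleolin pulldown.

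**Figure D4:**
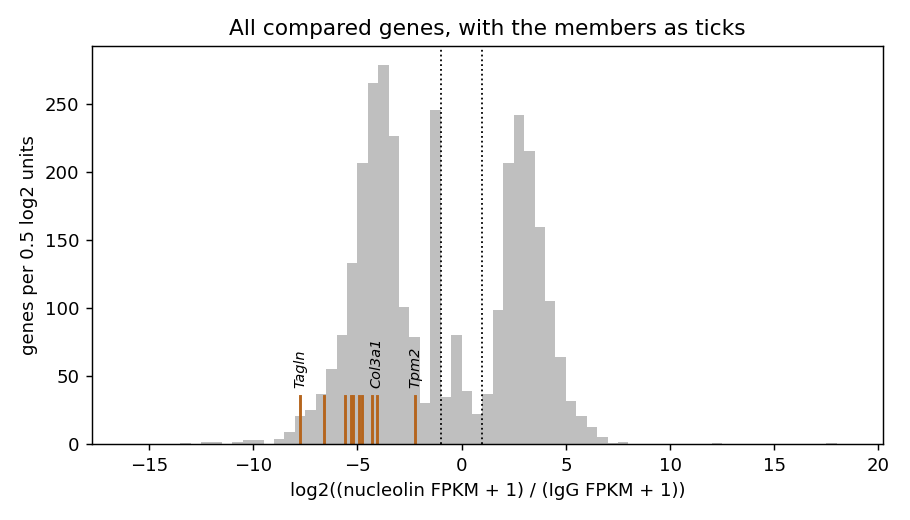
Distribution of log2((nucleolin FPKM + 1) / (IgG FPKM + 1)) over the 3194 genes compared, in bins of 0.5 units, with the 10 members as ticks and dotted lines at 2-fold. Genes at 0 in 1 library form the outer humps, where the position reflects the level in the other library and the pseudocount; the members run from Tagln at -7.75 to Tpm2 at -2.22.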

How the data were processed

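The deposited table gives FPKM for 33529 transcript rows, with 1 column per library, as the authors made it, per the file headers. The submitters' processing notes name FastQC 0.10.0, Trimmomatic 0.32 and build mm10, with no settings. For the aligner, counting tool and strand, the sources used here say nothing. Rows without a symbol (56) were left out, and the rest were summed to 23924 symbols in pandas 2.3.3 (Python 3.11.15); intervals used scipy 1.17.1. Genes at 1 FPKM or more in at least 1 library were compared as log2(FPKM + 1) differences, with 2-fold as the limit and no test. The pseudocount of 1 understates changes of low genes. The ratio taken as that of equal reads came from genes below 60 FPKM (IgG) and 30 FPKM (nucleolin). Read pairs were matched within 0.05 log2 units, at most 8 reads in all, at any level. The steps were tested on simulated data. Total depth is unknown. The members and the 13 other lists were chosen with earlier results of these data known. Named genes are all members, the 3 highest genes of each list in each library and the 5 nearest in level; other names were added after values were seen. Gene positions and promoters come from RefSeq tables of GRCm38.p6. Alternatives were other pseudocounts, filters, row rules and scalings.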

Additional observations from a re-analysis of the deposited data

How the results depend on the processing

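The 8 alternatives gave 80 member values, all negative, and 77 of them at 2-fold or more lower in the nucleolin pulldown. The 3 others were Tpm2, at -0.95 when centred on the median of all compared genes, -0.96 with 1 read set equal in both libraries and -0.87 with the same summed FPKM outside the 4 highest RNA genes, so that 9 of 10 members were counted there. The members' median of -5.06 moved to -8.35 with a pseudocount of 0.1 FPKM and to -2.09 with 10 FPKM, by construction since 9 members are at 0, and to -3.80 after centring, which shifts every gene alike. The count of all compared genes that were lower stayed between 1259 and 1817. The median of all compared genes moved from -1.27 to -3.70 at a minimum of 10 FPKM and to 0.0761 with the same summed FPKM, and that of the non-muscle relatives from -1.29 to 0.0083 with 1 read set equal and to 0.10 with the same summed FPKM. Under centring, equal reads and equal sums, the macrophage median turned from -0.68 to 0.59, 0.65 and 0.74, and that of collagen folding and processing genes from -0.30 to 0.97, 1.03 and 1.12. The direction of these 3 groups depends on the scaling. Of the other smooth muscle genes, the 8 at least 2-fold lower became 6 under the same 3 scalings and 5 with a pseudocount of 10 FPKM. None of them was at least 2-fold higher, except 1 with the same summed FPKM. No paired analysis was possible because each group has 1 library. Depth limits every 0 in these libraries.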
